A study of Arabidopsis thaliana with 24 samples.

Results

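The comparison described here is the response of dark WT Arabidopsis thaliana shoots to sucrose. It rests on 6 of the 24 ATH1 arrays of the series, chosen by their titles: 3 arrays of WT shoots given 1% sucrose in darkness and 3 arrays of WT shoots given no sucrose in darkness, each for 2 h. The plants of every condition were 3 weeks old, grown hydroponically in a 16 h light and 8 h dark cycle with 1% sucrose and 2 mM KNO3, and then kept for 24 h in darkness without sucrose before the treatment. The other 18 arrays hold WT shoots with and without sucrose under 70 µE of light, and shoots of the mutant sdg8-5 under the same 4 treatments, with 3 arrays in each of the 8 conditions. WT here means the parent line of the mutant, which carries a reporter transgene driven by the ASN1 promoter, so that all plants of the series carry that transgene. sdg8-5 is a deletion mutant of SDG8, a histone methyltransferase that acts on lysine 36 of histone H3.

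Sucrose is both the fuel that leaves send to the rest of the plant and a signal that sets which genes are read. When carbon runs short, the protein kinase SnRK1, the plant relative of yeast Snf1 and animal AMPK, is active, and plant cells switch on genes that break down amino acids, lipids and their own cytoplasm to feed respiration. When sugar returns, these genes are turned down, and genes for ribosome making, protein folding and cell wall growth are typically turned up. A shoot in darkness fixes no carbon, so sucrose in the medium was the only carbon supply added here.

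Array intensities, the brightness of a probe set in arbitrary units, had medians of 187 to 221 on the 6 arrays, within the 180.5 to 223 of all 24, and any 2 arrays of one condition correlated at 0.914 or above on the log2 scale. For the 4 spiked-in controls and the 3' to 5' ratios of actin, GAPDH and ubiquitin, exact two-sided permutation tests between both dark WT groups gave p = 0.6 to 1. The 25S rRNA control read 1275, 2801 and 2556 with sucrose, against 7149, 8823 and 2954 without (log2 difference -1.45, exact permutation p = 0.1, the smallest that 3 against 3 arrays allow, 0.8 after adjustment over 8 controls). The probe set thus lay lower on all 3 arrays with sucrose. Where its signal serves as a covariate below, the signal and the treatment cannot be fully told apart. Of the shoot markers, the chlorophyll-binding protein gene LHCB4.2 averaged 8534 with sucrose and 11733 without, and rubisco activase (RCA) averaged 5227 with sucrose and 5504 without. Of the root markers, PYK10, a beta-glucosidase of root ER bodies, was abundant in both groups (6474 with sucrose and 6119 without), while the root hair expansins EXPA7 (82.4 with sucrose and 63.0 without) and EXPA18 (76.0 with sucrose and 56.2 without) were low; none of these markers passed the test. In whole shoots, fewer cells of a type and less RNA per cell cannot be told apart.

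Sucrose changed 510 of 12431 measured genes (4.1%) in dark WT shoots at an adjusted p under 0.05 in limma's moderated test: 296 genes were higher with sucrose (2.38%) and 214 were lower (1.72%). In the same test 2165 genes had an unadjusted p under 0.05. Among all 21552 probe sets kept, controls aside, 568 were higher and 416 lower at the adjusted threshold. The median change was 0.86 (log2) among the genes that rose and -0.86 among those that fell, with 110 rising and 70 falling by at least 1 log2 unit. In 508 of the 510 genes the 3 arrays with sucrose did not overlap the 3 without, a pattern seen in 21.4% of all genes (13.1% with sucrose above and 8.29% below). The calls rest on these same arrays, so non-overlap among called genes was nearly fixed by them. It is no separate check, here or for the genes below, some of which were also chosen for it. The median log2 change over all genes was 0.086 and its median SE 0.27. When each array was instead centred on its own median, the median over all genes became -0.069, all 510 genes kept their direction, and the split of calls turned round to 129 higher and 382 lower (25.2% higher, against 58.0% in the scaling as deposited). The number of genes called each way therefore depended on the scaling. Median centring moved every gene by the same amount, small beside the median change of the called genes. Their kept direction is therefore no separate check.

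**Figure D1:**
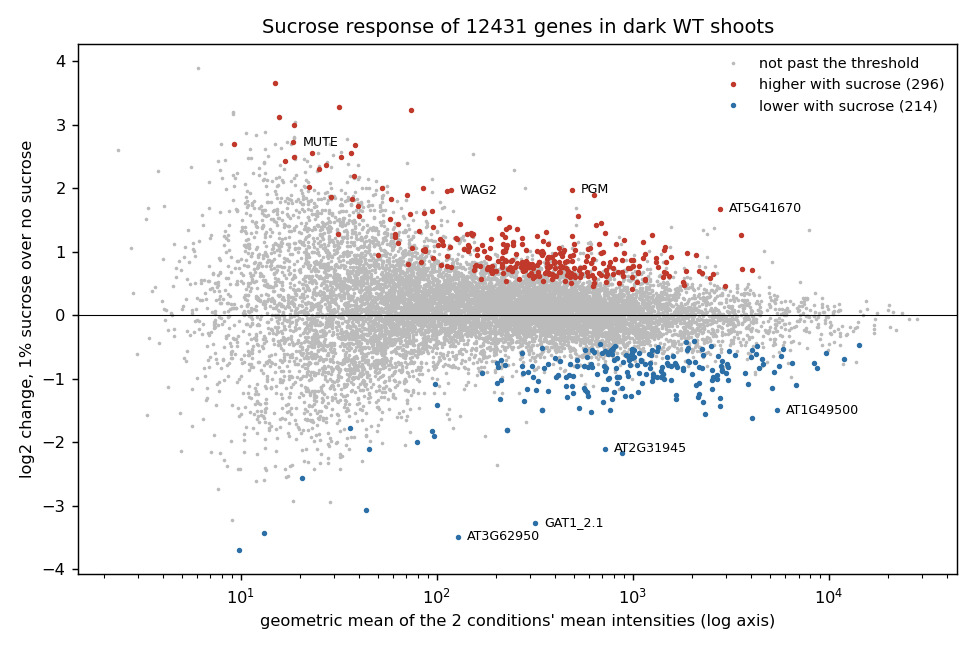
Log2 change with sucrose over without (vertical axis) against the geometric mean of both conditions' mean intensities (horizontal log axis) for the 12431 genes, 1 point a gene, with the 296 genes called higher, the 214 called lower and all others marked by colour. The names mark PGM at 1.97 and GAT1_2.1 at -3.27, among others.

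Most of the measured carbon starvation genes fell. Of 26 genes listed as induced by starvation or by SnRK1, 5 could be measured, 4 of them were lower with sucrose and 0 were higher, against 1.72% of all genes that were lower. This list was written with earlier results of these data known, as were the lists below, so the counts only describe the members. GAT1_2.1, which encodes a glutamine amidotransferase, had 199.6, 20.3 and 127 with sucrose, against 909.7, 383 and 1327 without (log2 change -3.27, SE 0.86, adjusted p = 0.0368). Its groups did not overlap, although the arrays within each group spread widely and 1 array with sucrose read under the filter value of 40. AKINBETA1, a regulatory beta subunit of the SnRK1 kinase itself, had 1588, 1252 and 1410.0 with sucrose, against 4019, 2986 and 3122 without (log2 change -1.25, SE 0.21, adjusted p = 0.00313). Every array with sucrose read lower than every array without it. AT2G20670 had 2626, 2294 and 1939 with sucrose, against 9434, 6336 and 5725 without (log2 change -1.62, SE 0.39, adjusted p = 0.0243), and AT1G56220 had 4444, 4864 and 4724 with sucrose, against 9404, 10116 and 10376 without (log2 change -1.09, SE 0.22, adjusted p = 0.00913). The fifth gene, AT3G15450, had 10881, 10887 and 10161 with sucrose, against 18566, 17479 and 16976 without, with no overlap and a log2 change of -0.73 (SE 0.23, adjusted p = 0.086). Median centring brought it past the threshold, at -0.89 (adjusted p = 0.0378), and trend and robust estimation also did (adjusted p = 0.0304). The median of the 5 changes was -1.25, beside 0.086 over all genes. With 1 of the 6 arrays left out at a time, AKINBETA1 and AT1G56220 stayed past the threshold in all 6 fits, and GAT1_2.1 and AT2G20670 in 2 of 6 each. AKINBETA1 stayed called with the 25S rRNA signal as a covariate, and GAT1_2.1, AT2G20670 and AT1G56220 did not (adjusted p = 0.0884 to 0.177).

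Genes for the breakdown of branched-chain amino acids and lysine fell: 7 of 11 measured genes (of 21 listed) were lower with sucrose and 0 were higher, against 1.72% and 2.38% of all genes, with a median change of -0.68. Leucine is degraded in mitochondria through isovaleryl-CoA dehydrogenase (IVD) and 3-methylcrotonyl-CoA carboxylase, whose subunits are MCCA and MCCB. MCCA had 2078, 1562 and 1665 with sucrose, against 5366, 3750.3 and 4066 without (log2 change -1.31, SE 0.34, adjusted p = 0.0335). MCCB had 1429.8, 1207 and 1436 with sucrose, against 4262, 3222 and 2636 without (log2 change -1.29, SE 0.32, adjusted p = 0.0301), and IVD had 1553, 1256 and 1454 with sucrose, against 3691, 2879 and 2651 without (log2 change -1.10, SE 0.27, adjusted p = 0.0274). In each of these genes the lowest array without sucrose was above the highest array with it. Electrons from IVD pass through the electron transfer flavoprotein to its ubiquinone oxidoreductase. The oxidoreductase gene ETFQO had 638, 575 and 551 with sucrose, against 1468, 951 and 1088 without (log2 change -0.97, SE 0.20, adjusted p = 0.01), and ETFBETA, the beta subunit of the flavoprotein, had 626, 667 and 623 with sucrose, against 992, 907 and 894 without (log2 change -0.54, SE 0.15, adjusted p = 0.04996). The alpha subunit ETFALPHA averaged 624 with sucrose and 647 without, a log2 difference of -0.048 (SE 0.15, adjusted p = 0.921). So 2 of the 3 measured genes of this relay fell.

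Lysine is degraded by the bifunctional lysine-ketoglutarate reductase/saccharopine dehydrogenase (LKR/SDH, AT4G33150), which had 2109.8, 2153 and 2346 with sucrose, against 3648, 2932 and 4518 without (log2 change -0.73, SE 0.19, adjusted p = 0.0394). ALDH6B2, an aldehyde dehydrogenase of valine breakdown, had 3763, 3654 and 3335 with sucrose, against 7122, 5155 and 5182 without (log2 change -0.68, SE 0.16, adjusted p = 0.0215). Both genes fell with no overlap of the arrays. D2HGDH, whose product oxidises D-2-hydroxyglutarate, had a log2 difference of -0.40 (SE 0.17, adjusted p = 0.204), and AT2G26800 one of -0.47 (SE 0.17, adjusted p = 0.12), so neither passed the test. Leaving out 1 array at a time kept ETFQO past the threshold in 5 of 6 fits, ALDH6B2 in 3, IVD in 2, AT4G33150 in 1, MCCA and MCCB in 1 each and ETFBETA in 0. LKR/SDH (adjusted p = 0.0637) and ETFBETA (adjusted p = 0.0594) missed the threshold under quantile normalization. MCCA, MCCB, IVD, ETFQO, ETFBETA, LKR/SDH and ALDH6B2 lost the call with the 25S rRNA signal as a covariate (adjusted p = 0.069 to 0.269).

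**Figure D2:**
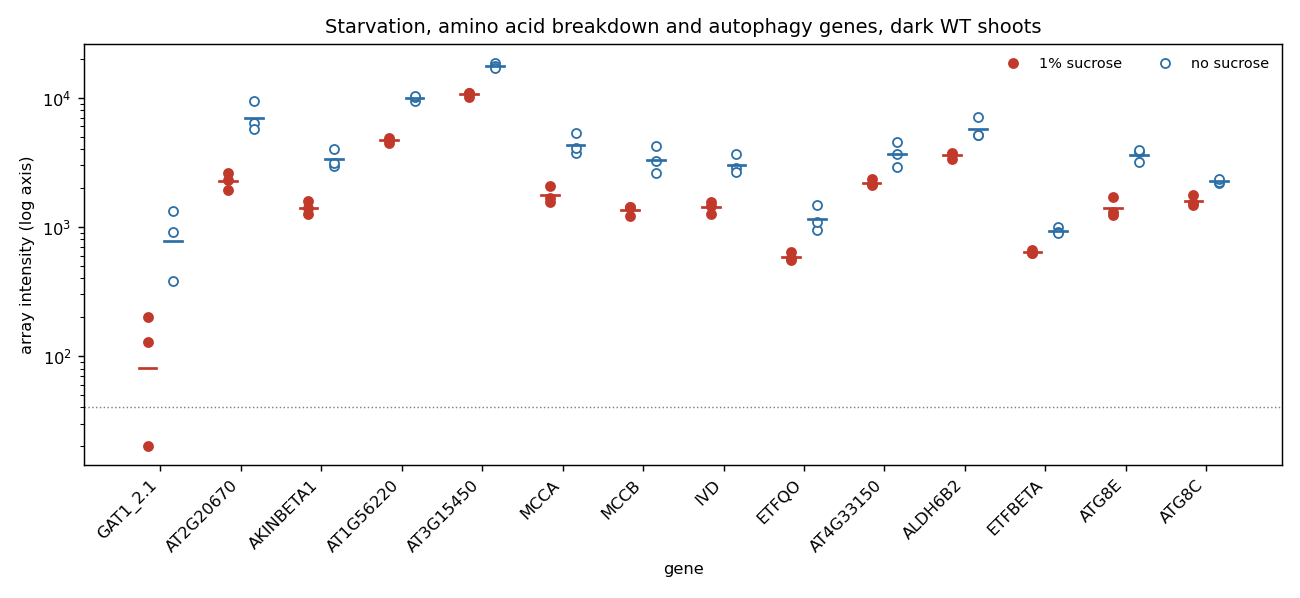
Intensity on each array (log axis) of 14 genes in dark WT shoots, 1% sucrose as filled circles on the left and no sucrose as open circles on the right of each gene, with horizontal bars at the geometric means and a dotted line at the filter's 40. In all 14 genes the 3 circles with sucrose lie below the 3 without, from GAT1_2.1, where the circles of a group are far apart, to ATG8C, where the gap is small.

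Autophagy, in which cell contents are enclosed in membrane and delivered to the vacuole, is built around ATG8, the small protein that coats the growing membrane. Of 11 measured autophagy genes, 2 were lower with sucrose and 0 were higher, against 1.72% and 2.38% of all genes, and 10 had a change below 0 (median -0.40). ATG8E had 1313, 1229 and 1701 with sucrose, against 3786, 3943 and 3171 without (log2 change -1.37, SE 0.34, adjusted p = 0.0307). ATG8C had 1537, 1482 and 1769.8 with sucrose, against 2196, 2236 and 2369.9 without (log2 change -0.51, SE 0.14, adjusted p = 0.0474). Of the other members of the ATG8 family, ATG8H had a log2 difference of -0.79 (SE 0.23, adjusted p = 0.0611), ATG8F of -0.75 (SE 0.22, adjusted p = 0.06) and ATG8G of 0.06 (SE 0.19, adjusted p = 0.921), all outside the threshold. APG8H (AT3G15580) had a log2 difference of -0.38 (SE 0.11, adjusted p = 0.0555), also outside the threshold. ATG8E had the most negative value of these genes and ATG8G the only positive one. Neither ATG8E nor ATG8C stayed past the threshold in any of the 6 fits that left out 1 array. ATG8C (adjusted p = 0.0803) missed the threshold under quantile normalization. ATG8E and ATG8C lost the call with the 25S rRNA signal as a covariate (adjusted p = 0.201 to 0.265).

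Single genes with other roles in breakdown fell as well. GAMMA-VPE, a vacuolar processing enzyme that activates proteases in the vacuole, had 9949, 9102 and 8936 with sucrose, against 14718, 12453 and 18306 without (log2 change -0.68, SE 0.16, adjusted p = 0.0209). SDP1, the lipase that starts the breakdown of stored oil and whose mutant was named for its need of sugar, had 705, 619 and 516 with sucrose, against 1361, 876 and 1081 without (log2 change -0.84, SE 0.18, adjusted p = 0.0129). UBC28, a ubiquitin-conjugating enzyme, had 12143, 12557 and 11462 with sucrose, against 17453, 16911 and 15571 without (log2 change -0.46, SE 0.12, adjusted p = 0.0321); it was the only one of 32 measured genes of ubiquitin conjugation and removal to pass the test. SKP2A, an F-box protein that marks cell cycle regulators for breakdown, had 546, 572 and 512 with sucrose, against 998, 849.8 and 1077 without (log2 change -0.84, SE 0.18, adjusted p = 0.0135). DER2.1, a derlin of the pathway that clears misfolded proteins from the endoplasmic reticulum, changed by -0.87 (SE 0.24, adjusted p = 0.0439), and ELC, a component of the machinery that sorts ubiquitinated membrane proteins, by -0.70 (SE 0.19, adjusted p = 0.0411). With an array left out SDP1 and SKP2A kept their calls in 4 of 6 fits each, GAMMA-VPE and ELC in 2 each, and UBC28 and DER2.1 in 1 each. GAMMA-VPE (adjusted p = 0.0516), UBC28 (adjusted p = 0.141) and DER2.1 (adjusted p = 0.0637) missed the threshold under quantile normalization. GAMMA-VPE, SDP1, UBC28, SKP2A, DER2.1 and ELC lost the call with the 25S rRNA signal as a covariate (adjusted p = 0.0841 to 0.224).

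Of the genes with the largest falls, most carry only a locus number in the annotation used. AT3G62950 had 47.0, 8.65 and 80.6 with sucrose, against 386, 384 and 313 without (log2 change -3.49, SE 0.74, adjusted p = 0.0134). The array with 8.65 lies below the filter value of 40, so the size of this fall is uncertain while its direction is the same on every array. AT2G32150 had 570.4, 251 and 428 with sucrose, against 2623, 1491 and 1421 without (log2 change -2.17, SE 0.31, adjusted p = 0.00124). AT2G31945 had 281, 401 and 358 with sucrose, against 1786, 1238 and 1454 without (log2 change -2.10, SE 0.23, adjusted p = 0.000213). On every array both genes read well above the filter, and the groups were far apart. UGT85A5, a UDP-glucosyl transferase, had 45.1, 18.5 and 62.7 with sucrose, against 149, 129 and 169.6 without (log2 change -1.99, SE 0.34, adjusted p = 0.00387). AT1G27990 changed by -1.90 (SE 0.36, adjusted p = 0.00661), AT3G20340 by -1.80 (SE 0.31, adjusted p = 0.00387) and AT3G15630 by -1.55 (SE 0.31, adjusted p = 0.00956). AT4G33666 changed by -1.80 (SE 0.40, adjusted p = 0.0177), AT4G15660 by -1.83 (SE 0.48, adjusted p = 0.0352) and AT3G55180, with 2 of its 3 arrays with sucrose under 40, by -3.07 (SE 0.86, adjusted p = 0.0483). The lowest array with sucrose also read under 40 for UGT85A5 (18.5), AT1G27990 (37.5), AT4G33666 (38.3) and AT4G15660 (38.9). The size of these falls is therefore uncertain as well. Left-out arrays took no call from AT2G32150, AT2G31945, UGT85A5, AT1G27990, AT3G20340 or AT3G15630, whereas AT3G62950 kept its call in 4 of 6 fits, AT4G33666 in 5, AT3G55180 in 1 and AT4G15660 in 0. AT2G32150, AT2G31945, UGT85A5 and AT3G20340 stayed called with the 25S rRNA signal as a covariate, and AT3G62950, AT1G27990, AT3G15630, AT4G33666, AT4G15660 and AT3G55180 did not (adjusted p = 0.073 to 0.201).

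Among bright probe sets, AT1G49500 had 3136, 3156 and 3427 with sucrose, against 9857, 8796 and 8763 without (log2 change -1.50, SE 0.19, adjusted p = 0.000487). The spread within each group was small beside the difference. AT5G14120 had 3213, 3971 and 3140.3 with sucrose, against 8384, 6515 and 7970.3 without (log2 change -1.15, SE 0.19, adjusted p = 0.00309), AT2G05540 had 6081, 7800.0 and 5538 with sucrose, against 14388, 10945 and 9378 without (log2 change -0.83, SE 0.20, adjusted p = 0.0269), and AT3G51730 had 5607, 7476 and 6459 with sucrose, against 11385, 10283 and 11142 without (log2 change -0.76, SE 0.19, adjusted p = 0.0314). No group overlapped its counterpart in these genes, as the choice of named genes required. AT1G49500 and AT5G14120 stayed called in all 6 fits with an array left out, AT2G05540 in 3 and AT3G51730 in 1. AT3G51730 (adjusted p = 0.0542) missed the threshold under quantile normalization. AT1G49500 and AT5G14120 stayed called with the 25S rRNA signal as a covariate, and AT2G05540 and AT3G51730 did not (adjusted p = 0.176 to 0.189).

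Regulators and other annotated genes that fell include UPB1, a bHLH transcription factor that sets peroxidase levels in the root, with 155, 109 and 134 with sucrose, against 356, 324 and 308 without (log2 change -1.33, SE 0.29, adjusted p = 0.0163). bHLH104, a factor of the iron deficiency response, had 995, 730.4 and 1018 with sucrose, against 2127, 1572 and 1514 without (log2 change -0.92, SE 0.20, adjusted p = 0.0144). SCL21, a GRAS protein of phytochrome A signalling, had 476, 398 and 401 with sucrose, against 843, 749.6 and 638 without (log2 change -0.80, SE 0.13, adjusted p = 0.0033). The groups stood apart in all 3 of these genes. ATL8, a RING-type ubiquitin ligase, changed by -1.27 (SE 0.34, adjusted p = 0.0411), and SIM, a cyclin-dependent kinase inhibitor that halts division in trichomes, by -0.55 (SE 0.14, adjusted p = 0.0313). COR47, a cold-regulated dehydrin, had 1388, 2164 and 2157 with sucrose, against 4218, 3225 and 3808 without (adjusted p = 0.0259). It was the only one of 4 measured genes of the abscisic acid and drought list to pass the test. The other 3, COR15A, COR15B and LTI30, had log2 differences of 1.91 (adjusted p = 0.0863), 0.072 (adjusted p = 0.932) and 1.94 (adjusted p = 0.137). COR15A read under 40 on every array except the second with sucrose, and its groups overlapped. LTI30 read 7.95, 66.4 and 107 without sucrose, so neither size is well set. SCL21 was called in all 6 fits with 1 array left out, UPB1 and bHLH104 in 4 each, COR47 in 3, SIM in 2 and ATL8 in 0. SCL21 stayed called with the 25S rRNA signal as a covariate, and UPB1, bHLH104, COR47, SIM and ATL8 did not (adjusted p = 0.073 to 0.243).

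Of 19 measured sugar transporters (median change 0.013), 1 passed the test, near the share of all genes (4.1%): SWEET2, a sugar transporter of the SWEET family, had 301, 354 and 304 with sucrose, against 982, 608 and 686 without (log2 change -1.22, SE 0.24, adjusted p = 0.00913). The other SWEET genes spanned -0.55 for SWEET16 to 1.73 for SWEET7, and the tonoplast transporters TMT1 and TMT2 had log2 differences of -0.23 (adjusted p = 0.438) and 0.26 (adjusted p = 0.625). Of 3 measured sucrose metabolism genes, F2KP, a bifunctional enzyme that makes and removes a fructose bisphosphate signal of sugar metabolism, had 978, 1133 and 1167 with sucrose, against 1859, 1488 and 1489 without (log2 change -0.56, SE 0.15, adjusted p = 0.0355). No gene of starch synthesis or breakdown was called among 6 measured, although APL3 and APL4, large subunits of ADP-glucose pyrophosphorylase, had log2 differences of 1.00 (SE 0.35, adjusted p = 0.123) and 0.88 (SE 0.28, adjusted p = 0.0888). APL3 averaged 308 with sucrose and 164 without, and APL4 averaged 130.5 with sucrose and 74.7 without. SWEET2 kept its call in 5 of 6 fits with an array left out and F2KP in 1. SWEET2 and F2KP lost the call with the 25S rRNA signal as a covariate (adjusted p = 0.091 to 0.216).

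Of 7 measured genes in a list of glycolysis, fermentation and pyruvate metabolism matched by symbol, 1 rose and 1 fell, against 2.38% and 1.72% of all genes. PGM, annotated as a phosphoglycerate/bisphosphoglycerate mutase, had 676, 1149.8 and 1027 with sucrose, against 141, 298 and 313 without (log2 change 1.97, SE 0.45, adjusted p = 0.0199). PPDK, pyruvate orthophosphate dikinase, which turns pyruvate back into phosphoenolpyruvate, had 3772, 2774 and 3402 with sucrose, against 6421, 4739.6 and 6528 without (log2 change -0.83, SE 0.18, adjusted p = 0.0146). The arrays of each gene did not overlap, and the genes moved in opposite directions. PDC2, a pyruvate decarboxylase of fermentation, averaged 1298 with sucrose and 561 without, a log2 difference of 1.23 (SE 0.39, adjusted p = 0.0787), and the enolase gene ENOC had a log2 difference of 0.57 (SE 0.22, adjusted p = 0.158). The abundant enzymes GAPC2, which averaged 21719.9 with sucrose and 20879 without, and TPI had log2 differences of 0.054 (adjusted p = 0.884) and 0.0005 (adjusted p = 0.999). None of 16 measured genes of respiration and the TCA cycle was called (median change 0.16). Outside these lists, MDH, the plastidic NAD-dependent malate dehydrogenase, had 1979, 2673 and 2498 with sucrose, against 1538, 1654 and 1224 without (log2 change 0.70, SE 0.17, adjusted p = 0.0306). PGM and PPDK each held their call in 3 of 6 fits with an array left out, and MDH in 2. MDH (adjusted p = 0.0755) missed the threshold under median centring. PGM, PPDK and MDH lost the call with the 25S rRNA signal as a covariate (adjusted p = 0.0553 to 0.142).

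The gene with an annotated symbol and the lowest adjusted p among those that rose was WAG2, an AGC-family protein kinase that phosphorylates PIN auxin carriers. It had 210.0, 217 and 262 with sucrose, against 83.1, 51.3 and 46.7 without (log2 change 1.97, SE 0.20, adjusted p = 0.000213). The groups were far apart beside the spread within them. AT5G41670 had 4237, 5361 and 5346 with sucrose, against 1679.8, 1549 and 1436 without (log2 change 1.67, SE 0.25, adjusted p = 0.00149), and AT1G04770 had 1021, 1389 and 1243 with sucrose, against 274, 441 and 284 without (log2 change 1.89, SE 0.24, adjusted p = 0.000487). These 3 genes were called in all 6 fits with an array left out. AT1G72540 had 167, 143 and 183 with sucrose, against 5.29, 12.2 and 81.9 without (log2 change 3.23, SE 0.67, adjusted p = 0.0122), with 2 of 3 arrays without sucrose under 40, so that the size of this rise is uncertain. AT1G07795 changed by 2.00 (SE 0.40, adjusted p = 0.00985), AT1G73620 by 1.89 (SE 0.42, adjusted p = 0.0168), AT1G62350 by 1.82 (SE 0.36, adjusted p = 0.00833), AT4G23490 by 1.64 (SE 0.41, adjusted p = 0.0301), AT4G39190 by 1.62 (SE 0.38, adjusted p = 0.0225) and AT2G35480 by 1.59 (SE 0.34, adjusted p = 0.0129). In each of these 6 genes all arrays with sucrose lay above all arrays without it, as the choice of named genes required. Each had 1 or 2 arrays without sucrose under 40, which leaves the size of its rise uncertain. Of these, AT1G07795 and AT1G62350 kept their calls in 5 of 6 fits with an array left out, as AT1G72540 did, and the other 4 in 3. AT4G23490 (adjusted p = 0.0516) and AT4G39190 (adjusted p = 0.0509) missed the threshold under quantile normalization. WAG2, AT5G41670, AT1G04770 and AT1G07795 stayed called with the 25S rRNA signal as a covariate, and AT1G72540, AT1G73620, AT1G62350, AT4G23490, AT4G39190 and AT2G35480 did not (adjusted p = 0.0595 to 0.153).

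Protein folding genes were among those that rose. In a set of 10 chaperones and co-chaperones put together after the values were seen, 5 were higher with sucrose and 0 were lower. The shares of all genes were 2.38% and 1.72%, but the set's count cannot be weighed against them, because its called genes were known when it was made. In the separate list of heat shock proteins and factors, 2 genes were measured and 1, Hsp70-2, was higher. That list was matched by annotated names, so genes carrying only a locus number are not counted in it. Hop3, a co-chaperone that links Hsp70 and Hsp90, had 252, 198 and 209 with sucrose, against 75.1, 51.1 and 46.9 without (log2 change 1.96, SE 0.29, adjusted p = 0.00129). ROF2 (AT5G48570, also FKBP65), a peptidyl-prolyl isomerase that binds Hsp90, had 425, 194 and 420.2 with sucrose, against 67.2, 115 and 188 without (log2 change 1.52, SE 0.41, adjusted p = 0.0438). Hsp70-2 had 2256, 1240.5 and 1384 with sucrose, against 650.1, 847 and 946 without (log2 change 0.96, SE 0.25, adjusted p = 0.0348). In all 3 genes the arrays with sucrose were above those without. Cpn60beta2, a subunit of the plastid chaperonin that folds newly imported proteins, had 1435, 1024 and 1182 with sucrose, against 458, 573 and 642 without (log2 change 1.12, SE 0.24, adjusted p = 0.0145), and BOB1, a small heat shock protein-like chaperone needed for development, had 1489, 976 and 1498 with sucrose, against 818, 650.5 and 819 without (log2 change 0.77, SE 0.17, adjusted p = 0.0165). The relatives Hop1, Hop2, Cpn60beta3 and Cpn60beta4 did not pass the test, with log2 differences of -0.01 (adjusted p = 0.982), 0.53 (adjusted p = 0.299), 0.70 (adjusted p = 0.353) and 0.34 (adjusted p = 0.475). Hop3 was called in all 6 fits with an array left out, Cpn60beta2 in 4, BOB1 in 3, Hsp70-2 in 2 and ROF2 in 2. ROF2 (adjusted p = 0.0967) missed the threshold under quantile normalization, and ROF2 (adjusted p = 0.0696), Hsp70-2 (adjusted p = 0.0699) and BOB1 (adjusted p = 0.0618) missed the threshold under median centring. Hop3 stayed called with the 25S rRNA signal as a covariate, and ROF2, Cpn60beta2, Hsp70-2 and BOB1 did not (adjusted p = 0.123 to 0.288).

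Of 12 measured RNA polymerase subunit genes, 2 were higher with sucrose and 0 were lower, against 2.38% and 1.72% of all genes (median change 0.44). NRPA2, the second largest subunit of RNA polymerase I, which reads the rRNA genes, had 858, 612 and 731 with sucrose, against 458, 477 and 359.9 without (log2 change 0.76, SE 0.20, adjusted p = 0.0345). NRPB7, a subunit of RNA polymerase II, had 494, 497 and 473 with sucrose, against 275, 321 and 269 without (log2 change 0.76, SE 0.15, adjusted p = 0.0101). YAO, a nucleolar protein of pre-rRNA processing, had 524, 460.4 and 477 with sucrose, against 234, 261 and 233 without (log2 change 1.00, SE 0.16, adjusted p = 0.00287). The arrays with sucrose were above those without in all 3 genes, and NRPA2 and YAO belong to rRNA production. NIH, a nuclear DEIH-box helicase, changed by 0.63 (SE 0.17, adjusted p = 0.0411), and PPR596, a pentatricopeptide repeat protein of mitochondrial RNA, had 649, 474 and 579 with sucrose, against 203, 288 and 201 without (log2 change 1.31, SE 0.26, adjusted p = 0.00959). As given above, the 25S rRNA control probe set itself read lower with sucrose in the same libraries, and with its signal as a covariate YAO changed by 0.96 (adjusted p = 0.0353), NRPB7 by 0.86 (0.0385) and NRPA2, no longer called, had 0.71 (0.177). NIH (0.177) and PPR596 (0.0762) lost their calls too. YAO stayed called in all 6 fits with an array left out, NRPB7 and PPR596 in 5 each, NRPA2 in 2 and NIH in 1. NRPA2 (adjusted p = 0.0623) and NIH (adjusted p = 0.0836) missed the threshold under quantile normalization, and NRPA2 (adjusted p = 0.0766) and NIH (adjusted p = 0.095) missed the threshold under median centring.

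Cell wall enzymes moved in both directions. GH9C2, an endoglucanase of glycosyl hydrolase family 9 with a cellulose-binding module, had 1030.0, 1353 and 995 with sucrose, against 304, 505 and 440.4 without (log2 change 1.45, SE 0.20, adjusted p = 0.000915), and its relative GH9B8 had 482, 660.1 and 542 with sucrose, against 261, 366 and 318 without (log2 change 0.83, SE 0.23, adjusted p = 0.0474). ATPMEPCRB (PME41), a pectin methylesterase, had 1577, 1659.9 and 1769 with sucrose, against 853, 569 and 868 without (log2 change 1.15, SE 0.26, adjusted p = 0.0168). These 3 genes rose with no overlap of the arrays. GALT29A (AT1G08280), a glycosyltransferase of arabinogalactan side chains, changed by 1.44 (SE 0.39, adjusted p = 0.0442), and GlcAT14A (AT5G39990), a glucuronosyltransferase of the same polymers, by 0.53 (SE 0.13, adjusted p = 0.0316). In the list of 25 measured expansins and xyloglucan endotransglucosylases (median change 0.37), 1 rose and 1 fell, against 2.38% and 1.72% of all genes. XTH32 had 1708, 1376 and 1486 with sucrose, against 614, 1001 and 869 without (log2 change 0.90, SE 0.24, adjusted p = 0.0362), whereas the expansin-like gene EXLA1 had 410.5, 501 and 479 with sucrose, against 1450.3, 814 and 941 without (log2 change -1.16, SE 0.30, adjusted p = 0.0335). EXGT-A3 (XTH27), listed under another symbol, had 2108, 2416 and 2038 with sucrose, against 4278, 4163 and 3923 without (log2 change -0.92, SE 0.16, adjusted p = 0.00441). GH9C2 and EXGT-A3 were called in all 6 fits with an array left out, ATPMEPCRB in 4, XTH32 and EXLA1 in 1 each and GH9B8 in 0. GH9B8 (adjusted p = 0.128), GALT29A (adjusted p = 0.062) and GlcAT14A (adjusted p = 0.107) missed the threshold under quantile normalization, and GH9B8 (adjusted p = 0.113), GALT29A (adjusted p = 0.0595), GlcAT14A (adjusted p = 0.103) and XTH32 (adjusted p = 0.0882) missed the threshold under median centring. GH9C2 stayed called with the 25S rRNA signal as a covariate, and GH9B8, ATPMEPCRB, GALT29A, GlcAT14A, XTH32, EXLA1 and EXGT-A3 did not (adjusted p = 0.0592 to 0.199).

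**Figure D3:**
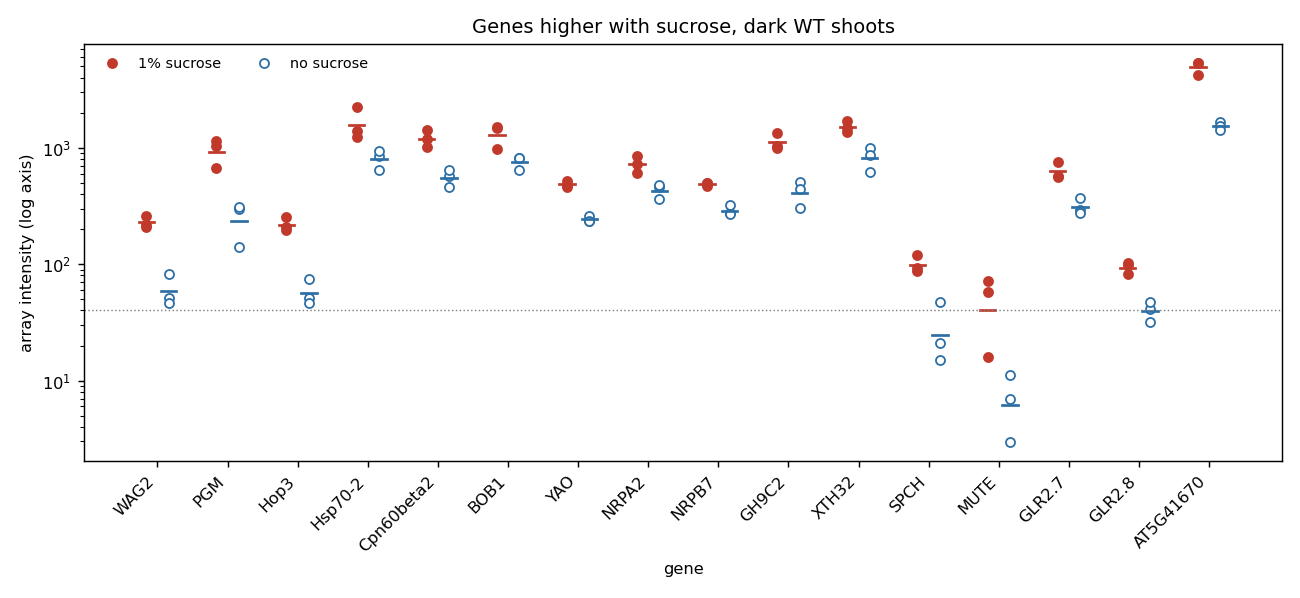
Intensity on each array (log axis) of 16 genes called higher with sucrose in dark WT shoots, 1% sucrose as filled circles on the left and no sucrose as open circles on the right of each gene, with horizontal bars at the geometric means and a dotted line at 40. No circle of one group overlaps the other in any gene, and all 3 circles of MUTE without sucrose lie under the dotted line.

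SPCH and MUTE, bHLH factors of the stomatal lineage, rose at low intensities. SPCH (SPEECHLESS), which starts the asymmetric divisions of the lineage, had 119.9, 87.2 and 92.6 with sucrose, against 15.0, 20.9 and 47.5 without (log2 change 2.01, SE 0.54, adjusted p = 0.0405). MUTE, which ends these divisions and commits a cell to guard mother cell fate, had 72.1, 16.0 and 58.2 with sucrose, against 11.3, 6.98 and 2.95 without (log2 change 2.72, SE 0.67, adjusted p = 0.0289). All 3 MUTE arrays without sucrose and 1 of 3 with it were under the filter value of 40, and 2 of 3 SPCH arrays without sucrose were as well, so the size of both changes is poorly set. FMA (FAMA), the third factor of the series, which makes guard cells, averaged 387 with sucrose and 280.0 without, a log2 difference of 0.52 (SE 0.28, adjusted p = 0.347), and STOMAGEN, a mesophyll peptide that promotes stomata, had one of -0.065 (SE 0.28, adjusted p = 0.943). These 4 were the measured members of 18 stomatal lineage genes looked up after the values of SPCH and MUTE were seen. SPCH kept its call in 1 and MUTE in 2 of 6 fits with an array left out. SPCH (adjusted p = 0.067) and MUTE (adjusted p = 0.0539) missed the threshold under quantile normalization, and SPCH (adjusted p = 0.0565) missed the threshold under median centring. SPCH and MUTE lost the call with the 25S rRNA signal as a covariate (adjusted p = 0.143 to 0.288). CLV3, the peptide of the shoot meristem's stem cells, had 77.9, 73.6 and 7.28 with sucrose, against 10.2, 7.05 and 8.63 without. The log2 difference was 2.03 (SE 0.66, adjusted p = 0.0943). Its groups overlapped, and the third array with sucrose and every array without it read under 40, so its size is poorly set too.

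Of 7 measured glutamate receptor-like channels 2 rose, against 2.38% of all genes: GLR2.7 and GLR2.8, which lie next to each other on chromosome 2. GLR2.7 had 751, 565 and 577 with sucrose, against 290.1, 273 and 371 without (log2 change 1.02, SE 0.18, adjusted p = 0.00387). GLR2.8 had 81.9, 97.5 and 102 with sucrose, against 41.5, 31.6 and 47.5 without (log2 change 1.24, SE 0.25, adjusted p = 0.0091). Both kept their call in all 6 fits with an array left out. Among 47 measured UDP-glycosyltransferases, where 1 rose and 1 fell, near the shares of all genes (2.38% and 1.72%), the one that rose was UGT76B1, which conjugates isoleucic acid and salicylic acid. It had 277, 208 and 325 with sucrose, against 99.9, 140.4 and 149 without (log2 change 1.06, SE 0.30, adjusted p = 0.0498). The one that fell was UGT85A5, given above. GT72B1 (UGT72B1), a glucosyltransferase of monolignols and xenobiotics under another symbol, had 1794, 2225 and 1855 with sucrose, against 853, 1181 and 1273 without (log2 change 0.84, SE 0.20, adjusted p = 0.0239). PRA1.B4, a prenylated RAB acceptor of vesicle transport, had 318, 574 and 268 with sucrose, against 139, 142 and 137 without (log2 change 1.39, SE 0.36, adjusted p = 0.0348) and was the only call among 29 measured vesicle transport genes. UGT76B1 lost its call in every fit with an array left out, GT72B1 kept it in 2 and PRA1.B4 in 1. UGT76B1 (adjusted p = 0.116) and PRA1.B4 (adjusted p = 0.0731) missed the threshold under quantile normalization, and UGT76B1 (adjusted p = 0.0956), GT72B1 (adjusted p = 0.0564) and PRA1.B4 (adjusted p = 0.0574) missed the threshold under median centring. GLR2.7 stayed called with the 25S rRNA signal as a covariate, and GLR2.8, UGT76B1, GT72B1 and PRA1.B4 did not (adjusted p = 0.0666 to 0.288).

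Other annotated genes that rose had varied roles. ALDH2C4 (REF1), an aldehyde dehydrogenase that makes ferulic and sinapic acid, had 5112, 5243 and 5176 with sucrose, against 3145, 3105 and 3263 without (log2 change 0.71, SE 0.15, adjusted p = 0.0125), and ALDH3F1, another aldehyde dehydrogenase, had 1842, 1665 and 1896 with sucrose, against 954, 889.7 and 1053 without (log2 change 0.90, SE 0.14, adjusted p = 0.00163). AOP1, a 2-oxoglutarate-dependent dioxygenase, had 285, 369 and 332 with sucrose, against 165, 190.3 and 182 without (log2 change 0.87, SE 0.14, adjusted p = 0.00223). The spread within the groups was small in all 3. MMT, which makes S-methylmethionine, changed by 0.60 (SE 0.13, adjusted p = 0.0135), CER26 (AT4G13840), a factor of wax chain elongation, by 0.82 (SE 0.18, adjusted p = 0.0158), CURT1D (AT4G38100), a thylakoid-bending protein, by 0.93 (SE 0.18, adjusted p = 0.00718), ARA12, a subtilisin-like protease, by 0.48 (SE 0.13, adjusted p = 0.0379), and POL, a protein phosphatase of meristem signalling, by 0.84 (SE 0.19, adjusted p = 0.018). MYR2, a MYB-related factor, had 299.5, 169 and 219.7 with sucrose, against 78.7, 129 and 127 without (log2 change 1.04, SE 0.21, adjusted p = 0.00932). Some genes carry only a locus number in the annotation used. Of these, AT3G09440 had 5572, 6132 and 4854 with sucrose, against 2519, 1992 and 2418 without (log2 change 1.26, SE 0.20, adjusted p = 0.00287). AT4G01700 had 2316, 1709 and 1783 with sucrose, against 729, 726 and 957 without (log2 change 1.27, SE 0.19, adjusted p = 0.00173). AT5G08570 changed by 0.94 (SE 0.16, adjusted p = 0.00387), AT2G29670 by 0.98 (SE 0.21, adjusted p = 0.0145), AT5G11090 by 0.72 (SE 0.16, adjusted p = 0.0176) and AT1G29660 by 0.64 (SE 0.14, adjusted p = 0.0135). ALDH3F1, AOP1, AT3G09440, AT4G01700, AT5G08570 and CURT1D were called in all 6 fits with an array left out, and the others named here in 0 to 5. ALDH2C4 (adjusted p = 0.0558), MMT (adjusted p = 0.0791), ARA12 (adjusted p = 0.179), POL (adjusted p = 0.0592), AT5G11090 (adjusted p = 0.0842) and AT1G29660 (adjusted p = 0.0863) missed the threshold under median centring. ALDH3F1, AOP1, AT3G09440, AT4G01700, AT5G08570, CER26 and AT1G29660 stayed called with the 25S rRNA signal as a covariate, and ALDH2C4, MMT, CURT1D, ARA12, POL, MYR2, AT2G29670 and AT5G11090 did not (adjusted p = 0.0649 to 0.124).

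None of 8 measured nuclear photosystem and light-harvesting genes was called (median change -0.21; lowest LHCB4.2 at -0.45 (SE 0.19, adjusted p = 0.197)), and none of 69 plastid-encoded genes was called (median 0.095). Of 9 measured chlorophyll synthesis genes, 1 fell: CHLM, the magnesium protoporphyrin methyltransferase, had 2074, 1852 and 1701 with sucrose, against 2677, 3038 and 2451 without (log2 change -0.54, SE 0.14, adjusted p = 0.0313). PSB27, an assembly factor of photosystem II, had 3344, 3491 and 4082 with sucrose, against 5046, 4833 and 5367 without (log2 change -0.49, SE 0.11, adjusted p = 0.0183). Both falls were small, with arrays that did not overlap. The 4 measured reference genes had log2 differences of -0.15 to 0.087 with none called. None of 27 serine carboxypeptidase-like genes, 23 cytochrome P450 genes, 15 bZIP factors, 13 glutathione transferases or 12 auxin response genes was called either, with between 1 and 5 genes of each list at an unadjusted p under 0.05. In all, 33 of the 1476 measured genes with a symbol of their own rose and 30 fell, so that most of the 510 changed genes are known here by locus only. CHLM and PSB27 were each called in 2 of 6 fits with an array left out. CHLM (adjusted p = 0.0622) missed the threshold under quantile normalization. CHLM and PSB27 lost the call with the 25S rRNA signal as a covariate (adjusted p = 0.127 to 0.14).

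**Figure D4:**
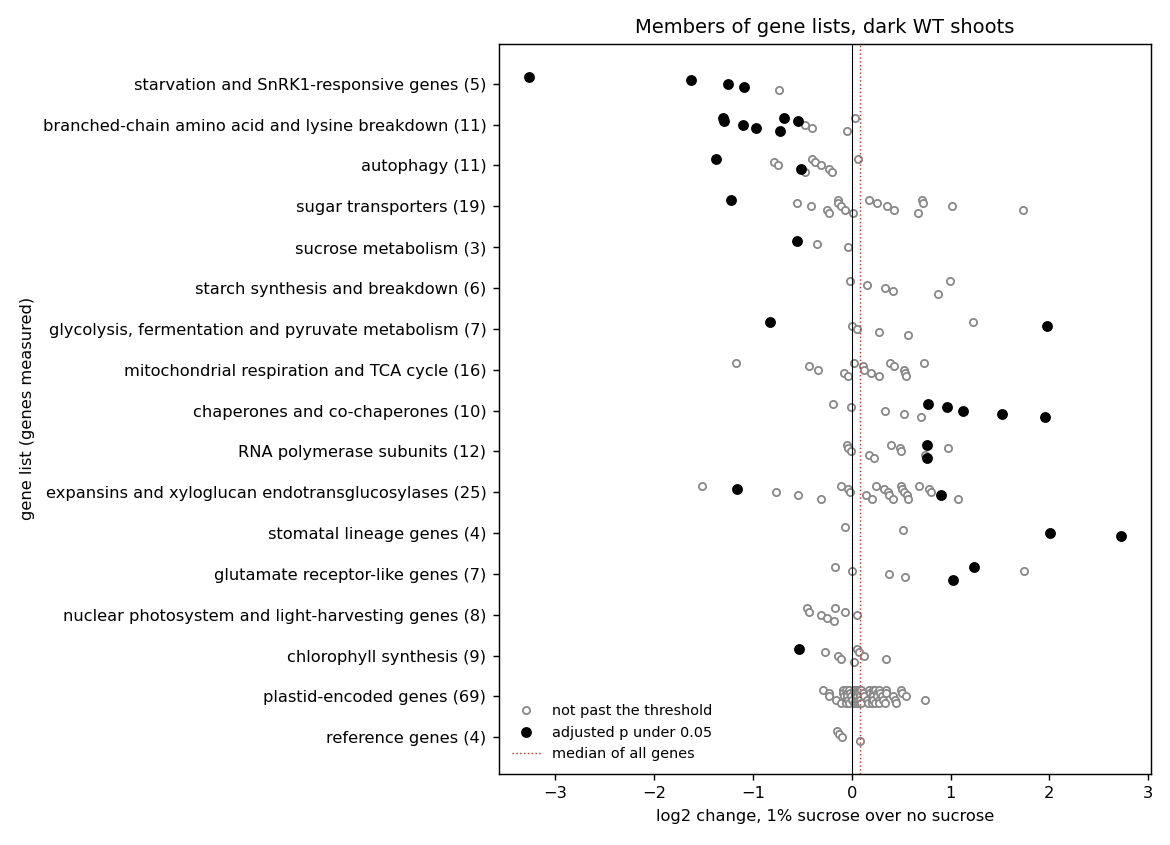
Log2 change with sucrose over without (horizontal axis) of each measured member of 17 gene lists (rows, with the number measured), black where the adjusted p was under 0.05 and open otherwise, with a dotted line at the median of all genes, 0.086. All filled points of the starvation, amino acid breakdown and autophagy lists lie left of 0. Those of the chaperone, RNA polymerase, stomatal and glutamate receptor lists lie right of it. The chaperone and stomatal lineage lists were put together after the values were seen. The other lists were written with earlier results of these data known.

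Of 5250 neighbouring pairs with both genes measured, 12 had both called. The 4.1% of all genes called is a share of single genes and cannot be set against this count of pairs. Whether neighbours were called together more often than other genes was not tested. Of the 12 pairs, 9 went in the same direction (5 pairs lower, 4 pairs higher) and 3 in opposite directions. The pairs in one direction include GLR2.8 with GLR2.7 and AT4G05400 (log2 change 0.65) with YAO (1.00), and AT3G15760 (-0.80) with AT3G15770 (-0.97). In the opposite direction, GAMMA-VPE (-0.68) lies next to AT4G32950 (1.36), and LKR/SDH, which fell, next to AT4G33160, which rose.

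Leaving out any 1 of the 6 arrays lowered both counts. Without 1 of the 6 arrays at a time, 85 to 257 genes were called higher and 52 to 158 lower. The fewest came without the first array lacking sucrose, when 85 were higher and 52 lower, of which 77 and 49 were among the 296 and 214. In total, 54 genes that rose and 46 that fell were called in all 6 of these fits, and 53 of the 510 in none. Fitted on the 6 dark WT arrays alone, 0 genes passed the adjusted threshold, with 1725 at an unadjusted p under 0.05. With the log2 signal of the 25S rRNA control as a covariate, 72 of the 510 genes stayed called and all 510 kept their direction. That signal lay lower on all 3 arrays with sucrose, so this covariate overlaps with the treatment. The median SE over all genes rose from 0.27 to 0.32 in this fit. A call lost with the covariate therefore does not show that a gene followed the 25S signal. Arrays also fell into a group of lower and a group of higher signal of the spiked-in control bioC, with 2 and 1 arrays of each dark WT condition. Within the lower group all 510 genes kept their direction, and within the higher group 509 did. As the arrays of 508 of them did not overlap, this outcome was nearly fixed by the calls and is no separate check. With bioC as a block, 370 genes were higher and 247 lower.

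The same contrast in light asks whether the response depends on darkness. In WT shoots under light, sucrose changed 149 genes (1.2%), 38 higher (0.306%) and 111 lower (0.893%), on arrays that the dark comparison did not use. Of the 296 genes higher in darkness, 17 were also called higher in light, 5.74% of the dark and 44.7% of the light list, and of the 214 lower, 68 were also called lower, 31.8% of the dark and 61.3% of the light list. In direction, 273 of the 296 and 203 of the 214 had the same sign in light, against 62.3% of all genes. Among all kept probe sets, the difference of the responses itself passed the test for 3. Of the measured genes it passed for 1 (0.00804%), AT3G15450, with 737 genes at an unadjusted p under 0.05. Without sucrose this gene was bright in both settings, but in light it had 497, 753 and 871 with sucrose, against 11002, 12489 and 8057 without, a log2 change of -3.91 (SE 0.23). The dark change of -0.73 was thus smaller by 3.18 log2 units (SE 0.33, limma adjusted p = 0.000397).

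The next lowest p-values of that difference belonged to AT5G19120 with -0.80 in darkness and -2.36 in light (difference 1.56, SE 0.31, adjusted p = 0.252) and AT4G18340 with -0.79 in darkness and -2.35 in light (difference 1.56, SE 0.31, adjusted p = 0.252). Both values were lower in light, and the difference did not pass the adjusted test. In the other direction, GLR2.8 had log2 values of 1.24 in darkness and -0.48 in light (difference 1.72, SE 0.35, adjusted p = 0.267), WAG2 of 1.97 in darkness and 0.63 in light (difference 1.34, SE 0.29, adjusted p = 0.275) and AT2G31945 of -2.10 in darkness and -0.65 in light (difference -1.46, SE 0.32, adjusted p = 0.293). The values of all 3 lay further from 0 in darkness, again with a difference outside the adjusted threshold. The amino acid breakdown genes had a list median of -0.68 with 7 of 11 called in darkness, and -0.36 with 0 of 11 called in light; MCCB had log2 values of -1.29 in darkness and -0.41 in light (difference -0.88, SE 0.45, adjusted p = 0.842), so the difference in the number of calls was not matched by a difference that passed the test.

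The same contrast in sdg8-5 asks whether the dark response needs SDG8. In dark sdg8-5 shoots, sucrose changed 1571 genes (12.6%), 945 higher (7.6%) and 626 lower (5.04%). Of the 296 genes higher in dark WT shoots, 239 were also called higher there (80.7% of the WT and 25.3% of the sdg8-5 list), and of the 214 lower, 180 (84.1% and 28.8%). The sign was the same in 288 of 296 and 209 of 214, against 68.0% of all genes. No gene passed the adjusted test of the difference between WT and sdg8-5 (0%), with 770 at an unadjusted p under 0.05. Trend and robust estimation called 3 genes. Among all kept probe sets 3 passed in the main fit, and none of them represents a measured gene here. The 6 lowest p-values were those of HAT2, AT1G02813, AT2G20670, AT1G18460, GH9B8 and AT5G25470. AT2G20670 changed by -1.62 in WT and -4.52 in sdg8-5 (difference 2.89, SE 0.55, adjusted p = 0.149), and GH9B8 by 0.83 in WT and 2.44 in sdg8-5 (difference -1.60, SE 0.33, adjusted p = 0.202). HAT2, a homeodomain-leucine zipper factor of auxin response, had values of 0.10 in WT and 1.28 in sdg8-5 (difference -1.18, SE 0.22, adjusted p = 0.149). AT1G18460 had values of -0.58 in WT and -1.81 in sdg8-5 (difference 1.23, SE 0.25, adjusted p = 0.202). AT1G02813 read under 40 on all 6 dark sdg8-5 arrays and AT5G25470 on all 3 of those with sucrose, so no size is given for these genes. In AT2G20670 and GH9B8 the WT value was the one nearer 0. MCCA had log2 values of -1.31 in WT and -2.24 in sdg8-5 (difference 0.94, SE 0.48, adjusted p = 0.859), WAG2 of 1.97 in WT and 1.65 in sdg8-5 (difference 0.31, SE 0.29, adjusted p = 0.969) and GLR2.8 of 1.24 in WT and 0.065 in sdg8-5 (difference 1.17, SE 0.35, adjusted p = 0.53). GAT1_2.1 read under 40 on all 3 sdg8-5 arrays with sucrose, so its sizes are not compared.

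**Figure D5:**
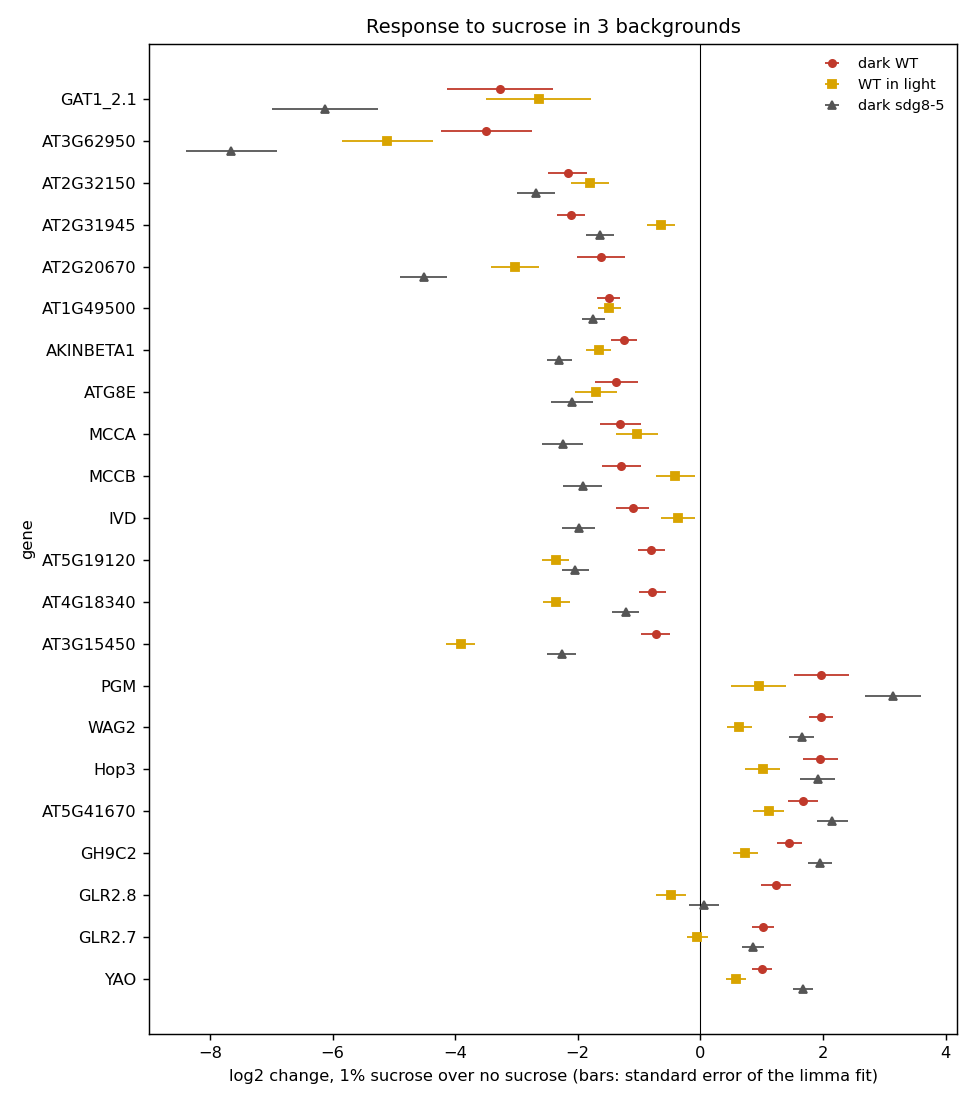
Log2 change with sucrose over without (horizontal axis) for 22 genes (rows) in dark WT shoots, WT shoots under light and dark sdg8-5 shoots, each point the difference of 2 means of 3 arrays and each bar its standard error in the limma fit. AT3G15450 has its dark WT point at -0.73 and its light point at -3.91, while AT1G49500 has all 3 points between -1.75 and -1.48. The light and sdg8-5 points of GAT1_2.1 and AT3G62950 rest on arrays with sucrose that all read under 40, so their size is uncertain.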

How the data were processed

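RNA of whole shoots was labelled from 1 µg with the one-cycle kit and hybridised to Affymetrix ATH1 arrays. The deposited values are linear intensities that the authors made with MAS5 in R (version not given in the sources used here), scaled so that the mean of each array, trimmed by 2% at each end, is 500. Per the labels the 3 arrays of a condition are biological replicates, 24 arrays in all, and no depth exists for arrays, whose number limits the precision. Of 22810 probe sets, 21552 reached 40 on at least 1 array and were kept, 1258 were left out. Log2 intensities were fitted with limma 3.58.1 (R 4.3.3) as 8 condition means over 24 arrays (16 residual degrees of freedom) with eBayes, and p-values were Benjamini-Hochberg adjusted over all kept probe sets. Probe sets were named from GEO's platform table and RefSeq (TAIR10.1): 13513 had 1 gene, 503 several and 8794 none, and 13436 matched RefSeq. Of several probe sets of a gene the brightest was used. Named genes are the 12 largest log2 changes and 8 largest intensity differences each way among called genes without overlap (the first with a mean of at least 100 in the higher group), up to 4 called members of each list, and the 6 lowest p-values of each difference test. Other genes with a symbol, the neighbours, and the chaperone and stomatal sets were added after their values were seen. The members and lists were chosen with earlier results of these data known. The fit was tested on simulated data, and alternatives covered the filter, pseudocount, scaling, variance model, replicate block and left-out arrays. Neighbouring genes were taken from the gene order of that RefSeq table.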

Additional observations from a re-analysis of the deposited data

Results flagged for a closer look

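AT3G15450 was singled out because its response to sucrose differed between 2 settings in a direct test: the log2 change in dark WT shoots minus that in WT shoots under light was 3.18 (SE 0.33, limma adjusted p = 0.000397), with all 3 arrays with sucrose below all 3 without in both settings. Means were 10643 with sucrose and 17674 without in darkness, and 707 with sucrose and 10516 without in light. The difference was 2.47 to 3.53 under the alternatives on the log2 scale, and missed the adjusted threshold without 1 replicate number in all conditions (adjusted p = 0.0641 to 0.119), within either bioC group (0.15 and 0.471) and on untransformed intensities (0.766); over all alternatives the adjusted p ran from 5.76e-07 to 0.766.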

How the results depend on the processing

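Both counts of the dark WT comparison (296 higher, 214 lower) moved with several settings. Filtering at 100 on 3 arrays gave 403 and 283; quantile normalization gave 169 and 211; median centring gave 129 and 382; untransformed intensities gave 163 and 336; trend and robust estimation gave 391 and 285; the 25S rRNA covariate gave 42 and 31. The 6 WT dark arrays alone, and either bioC group alone (chosen after seeing the data), gave 0 and 0; fewer arrays entered those fits, and 1725, 1572 and 952 genes had an unadjusted p under 0.05. Leaving out 1 array gave 85 to 257 higher and 52 to 158 lower, and leaving out 1 replicate number throughout gave 10 to 17 and 3 to 15. The cause of the other shifts was not tested. Genes that differed between dark and light numbered 10 on untransformed intensities, 2 with trend and robust estimation, 0 within either bioC group and 0 to 3 with arrays left out, against 1; between WT and sdg8-5 they numbered 2, 3, 0 and 0 to 1, against 0. HAT2, not called in any fit, reversed to -0.011 with quantile normalization, -0.054 with median centring and -0.13 within the lower bioC group, and ran from -0.13 to 0.32 with arrays left out, below 0 without the third array of either or both groups; AT5G25470 reversed to -0.37 within the higher bioC group. The replicate block gave 330 higher and 223 lower; arrays share only a number (correlations of deviations 0.0088, -0.0044 and 0.095; 1 of 3 arrays correlated best with its own number), and it took the call from 4 of 62 called named genes. The 25S rRNA difference was -1.38 with quantile normalization and -1.61 with median centring. The 3 arrays a condition limit the precision.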
